A study of Homo sapiens with 4 samples.

Results

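The genes described here encode acute-phase proteins and complement components in human proximal tubular cells (HPTCs). They are PTX3, C3, CFB, C1R, C1S, CD55, SAA1, SAA2 and LCN2, taken by gene name from the array design, and they make up 9 of the 25992 gene names and 13 of the 34127 probes on the array. HK-2 cells come from human proximal tubule and carry papillomavirus genes that immortalise them, and RPTEC/TERT1 cells, of the same origin, carry telomerase for that purpose. All cells were grown at normal glucose, kept without serum and supplements for 24 h, and then given interleukin-1β (IL-1β, 10 ng/mL), an inflammatory cytokine, together with empagliflozin (Empa, 500 nM), an inhibitor of the glucose transporter SGLT2, for 24 h. Each label, HK-2 or RPTEC/TERT1, had 2 arrays, which the methods call biological duplicates. Both agents were present on all 4 arrays, so every value is a level under the combination and none is a response to either agent. Arrays of untreated cells and cells given only IL-1β were not analysed here.

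The acute phase is the change in secreted proteins that follows injury or infection, and interleukin-1 and interleukin-6 drive it, mainly in the liver but also in epithelia. NF-κB, C/EBP and STAT3 are the transcription factors best known for switching on its genes. Complement is a cascade of plasma proteins in which C1r and C1s start the classical pathway, factor B serves the alternative pathway, and both meet at C3. CD55 on the cell surface breaks up the enzymes that cleave C3. Tubular cells are a known local source of C3, factor B, serum amyloid A and lipocalin-2, and lipocalin-2, also called NGAL, is used as a marker of tubular injury.

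The arrays resembled each other across the labels. RPTEC/TERT1 replicate 2 and HK-2 replicate 1 correlated at r = 0.983 over 20806 probes, and RPTEC/TERT1 replicate 1 and HK-2 replicate 2 at r = 0.975, while the other 4 pairs of arrays, including both pairs that share a label, lay between 0.837 and 0.861. These correlations are across probes, which are not independent replicates, and they share the design of the array and its dye. Which label fits which cells was not tested, so "the array labelled" is meant wherever a cell line is named below. The replicate number was also the day of the scan. No 2 of these 4 arrays shared a slide, as read from the scan names, so an effect of the slide cannot be told apart from one of the array.

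Markers that define cell types were read from lists of known markers. KRT8, KRT18, KRT19, EPCAM and PAX8, which mark epithelium and the kidney lineage, were well above background on all 4 arrays. The proximal tubule genes CUBN, SLC22A6, DPEP1 and HNF4A were not well above background on any array. ANPEP from the same list was above it only on RPTEC/TERT1 replicate 2 and HK-2 replicate 1. Of 7 hepatocyte markers, 6 (ALB, APOB, TTR, TF, FGB and SERPINC1) were not well above background on any array. APOA1, the remaining one, lay between -4.95 and -4.51, close to the floor of -5.37. Levels here and below are log2 of the processed signal over the 75th percentile of the array, so that 0 is the brightness of that percentile and each step of 1 is a doubling. Levels of different probes are not set against each other, since probes differ in how strongly they bind.

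The probes are 60 bases long, and 7 of them are shown here, so that a reader can see what the array measured for SAA1, C3, CFB, CD55, LCN2 and C1R. Each of the 7 has at least 1 reading frame without a stop codon inside it. The serum amyloid A1 probe A_24_P335092 lies at chr11:18290868-18291310, the complement C3 probes A_23_P101407 at chr19:6679177-6679434 and A_33_P3347869 at chr19:6686136-6686195 on the minus strand, the factor B probe A_23_P156687 at chr6:31918992-31919147, the CD55 probe A_24_P188377 at chr1:207510071-207510130, the lipocalin-2 probe A_23_P169437 at chr9:130914244-130914303 and the C1R probe A_33_P3393821 at chr12:7187836-7187895 on the minus strand, all in GRCh37 as the files give them. Spans of 443 bases for SAA1, 258 for the first C3 probe and 156 for CFB are longer than the probes, so these 3 probes cross a junction between exons. Exon annotation of that build was not used here. Sequences run 5′ to 3′ in lower case.
SAA1 A_24_P335092: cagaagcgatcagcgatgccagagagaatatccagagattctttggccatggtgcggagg
C3 A_23_P101407: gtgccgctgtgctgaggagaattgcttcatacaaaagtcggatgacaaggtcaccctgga
C3 A_33_P3347869: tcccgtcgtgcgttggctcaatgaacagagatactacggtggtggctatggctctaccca
CFB A_23_P156687: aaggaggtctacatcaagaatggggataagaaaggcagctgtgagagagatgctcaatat
CD55 A_24_P188377: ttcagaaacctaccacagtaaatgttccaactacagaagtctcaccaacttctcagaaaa
LCN2 A_23_P169437: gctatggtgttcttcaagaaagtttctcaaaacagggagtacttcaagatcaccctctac
C1R A_33_P3393821: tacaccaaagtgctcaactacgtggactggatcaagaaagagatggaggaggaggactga

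All 9 genes were found on the arrays, and 11 of the 13 probes were well above background on all 4 of them. The CD55 probe had 3 usable arrays. The second C1S probe was above background on none. Serum amyloid A and C3 differed widely between arrays, and the difference ran between arrays of one label rather than between the labels. CD55 also differed widely, between the 2 HK-2 arrays, but had only 1 usable RPTEC/TERT1 array. Lipocalin-2 was bright and nearly level on all 4 arrays. No member differed between HK-2 and RPTEC/TERT1 beyond the spread within a label. With limma and Benjamini-Hochberg adjustment, 0 of 12 member probes tested passed an adjusted p of 0.05, beside 0% of all 21202 probes tested. At an unadjusted p under 0.05 there were 26 probes, and 0 of them were members. In bulk RNA, fewer cells that express a gene and less of its RNA per cell cannot be told apart.

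**Figure D1:**
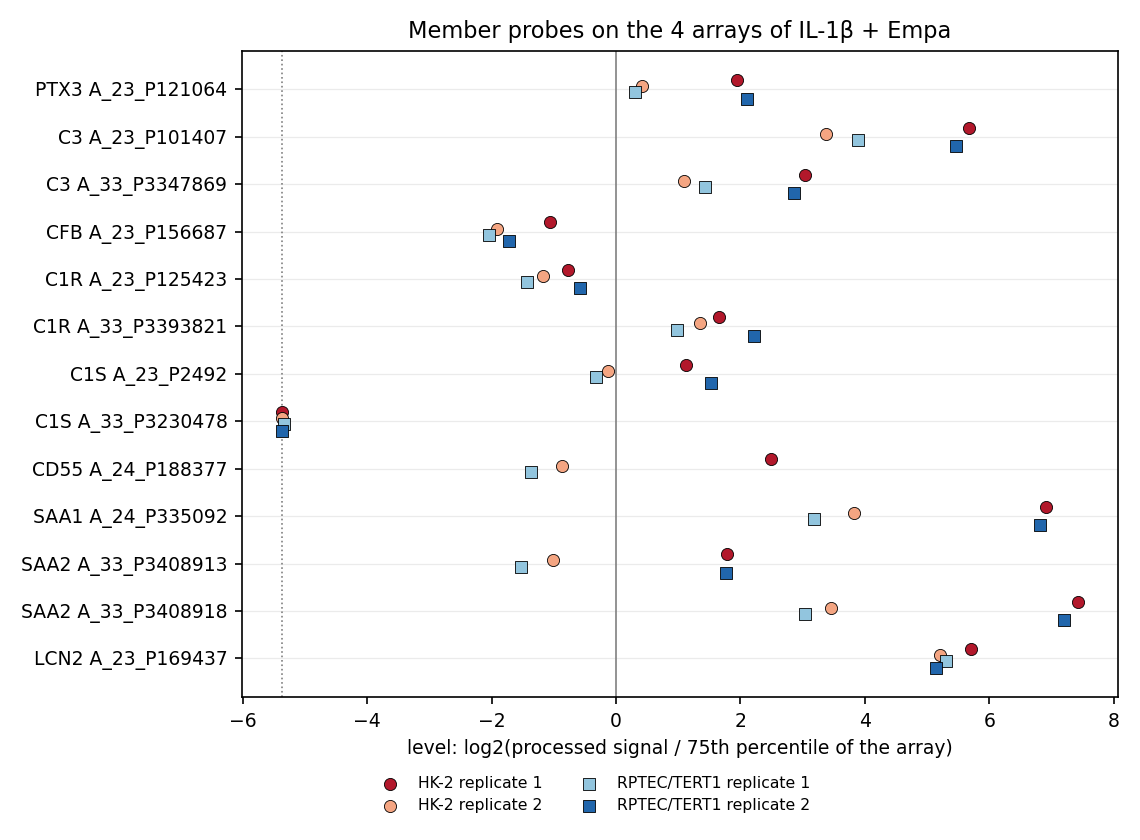
Level of each of the 13 member probes (log2 of processed signal over the 75th percentile of the array) on the 4 arrays, with circles for HK-2 and squares for RPTEC/TERT1; the dotted line is the floor and the solid line the 75th percentile. For most probes RPTEC/TERT1 replicate 2 and HK-2 replicate 1 lie to the right of the other 2 arrays, while the LCN2 points lie together and CD55 has no point for RPTEC/TERT1 replicate 2.

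The serum amyloid A proteins SAA1 and SAA2 are carried on high-density lipoprotein and rise steeply in plasma during inflammation. The SAA1 probe had levels of 6.90 and 3.82 on HK-2 replicates 1 and 2. On RPTEC/TERT1 replicates 1 and 2 it had levels of 3.18 and 6.81. In units of the 75th percentile this is 119.6, 14.1, 9.08 and 112 times, so the probe was far brighter than the 75th percentile of spots even where it was lowest. Both labels held 1 high and 1 low array, and the groups overlapped. HK-2 minus RPTEC/TERT1 was 0.37 ± 1.67 (SE, n = 2 arrays each; limma, adjusted p = 1).

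SAA2 was measured by 2 probes on the minus strand of chromosome 11, A_33_P3408918 at chr11:18266791-18266850 and A_33_P3408913 at chr11:18260648-18260707, which were designed against different SAA2 transcripts. The first had levels of 7.43 and 3.46 on HK-2 replicates 1 and 2, and of 3.04 and 7.19 on RPTEC/TERT1 replicates 1 and 2. The second had levels of 1.79 and -1.01 on the HK-2 arrays and of -1.53 and 1.77 on the RPTEC/TERT1 arrays. The order of the arrays was the same for both probes as for SAA1 at the low end, with RPTEC/TERT1 replicate 1 lowest and HK-2 replicate 2 next. The highest array was 21.0 times the lowest for A_33_P3408918, 9.95 times for A_33_P3408913 and 13.2 times for SAA1. Differences between the labels were 0.33 ± 1.99 and 0.26 ± 1.53 (SE, n = 2 arrays each; limma, adjusted p = 1 for both). SAA1 and SAA2 are near-identical neighbours, so which of them a probe measured is uncertain.

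Pentraxin 3, encoded by PTX3, is a secreted pattern recognition molecule that binds C1q and is made at sites of inflammation rather than in the liver. Its probe A_23_P121064 (chr3:157160969-157161028) was printed in 10 spots on each array, which gives the spread of repeat spots within an array. The level was 1.94 on HK-2 replicate 1, with an SD of 0.081 over 9 spots kept, and 0.42 on HK-2 replicate 2, with an SD of 0.11 over 10 spots. For RPTEC/TERT1 the level was 0.30 in replicate 1, with an SD of 0.20 over 10 spots, and 2.11 in replicate 2, with an SD of 0.066 over 8 spots. The level differed by 1.52 between the HK-2 arrays and by 1.81 between the RPTEC/TERT1 arrays. The SD of the spots covers the measurement on 1 array only and not the spread between cultures. The difference between the labels was -0.02 ± 0.91 (SE, n = 2 arrays each; limma, adjusted p = 1), so the spread lay within the labels.

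Lipocalin-2, the product of LCN2, withholds iron from bacteria by binding their siderophores. Its level was 5.70 and 5.21 on HK-2 replicates 1 and 2 and 5.31 and 5.15 on RPTEC/TERT1 replicates 1 and 2, which is 35.5 to 52.1 times the 75th percentile. The range of 0.55 was smaller than that of all other members tested, and 17.8% of the probes tested had a smaller one. The difference between the labels was 0.23 ± 0.48 (SE, n = 2 arrays each; limma, adjusted p = 1). No spot of any member was marked as saturated.

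C3 is the protein on which all complement pathways converge. Probe A_23_P101407 had levels of 5.67 and 3.37 on HK-2 replicates 1 and 2, and of 3.89 and 5.46 on RPTEC/TERT1 replicates 1 and 2. Probe A_33_P3347869 had levels of 3.03 and 1.09 on the HK-2 arrays and of 1.43 and 2.86 on the RPTEC/TERT1 arrays. The probes gave the same order of the 4 arrays, HK-2 replicate 2 lowest and HK-2 replicate 1 highest, and the highest was 4.90 and 3.85 times the lowest. Differences between the labels were -0.15 ± 1.04 and -0.09 ± 0.93 (SE, n = 2 arrays each; limma, adjusted p = 1 for both), and the labels overlapped.

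Factor B, encoded by CFB, supplies the protease of the alternative pathway C3 convertase. Its levels were -1.06 and -1.91 on HK-2 replicates 1 and 2 and -2.03 and -1.72 on RPTEC/TERT1 replicates 1 and 2. HK-2 replicate 1 stood above the other 3 arrays, which lay within 0.32 of each other. The highest array was 1.97 times the lowest, and the difference between the labels was 0.39 ± 0.54 (SE, n = 2 arrays each; limma, adjusted p = 1). CFB lies beside C2, its homologue in the classical pathway, and C2, also well above background on all 4 arrays, had a range of 0.91.

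C1r cleaves C1s, and C1s then cleaves C4 and C2. The genes lie next to each other on chromosome 12, on opposite strands. C1R probe A_33_P3393821 had levels of 1.66 and 1.35 on HK-2 replicates 1 and 2 and of 0.98 and 2.22 on RPTEC/TERT1 replicates 1 and 2. The other C1R probe, A_23_P125423 at chr12:7187567-7187626, had levels of -0.78 and -1.17 on the HK-2 arrays and of -1.42 and -0.58 on the RPTEC/TERT1 arrays. Both put RPTEC/TERT1 replicate 1 lowest and RPTEC/TERT1 replicate 2 highest. The ranges were 1.23 and 0.84, and the differences between the labels were -0.10 ± 0.62 and 0.03 ± 0.54 (SE, n = 2 arrays each; limma, adjusted p = 1 for both).

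For C1S the probes disagreed. Probe A_23_P2492 at chr12:7178093-7178152 had levels of 1.13 and -0.13 on HK-2 replicates 1 and 2 and of -0.32 and 1.52 on RPTEC/TERT1 replicates 1 and 2, with the same order of arrays as C1R and a range of 1.85. Its difference between the labels was -0.10 ± 0.88 (SE, n = 2 arrays each; limma, adjusted p = 1). Probe A_33_P3230478 at chr12:7171593-7171652 was not well above background on any array and lay at or near the floor of -5.37 on all 4, so it was not tested. Its letters are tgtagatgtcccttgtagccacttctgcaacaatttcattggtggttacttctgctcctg, and the file gives it a different C1S transcript from that of the brighter probe.

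CD55, or decay-accelerating factor, protects the cell's own surface from complement. Levels were 2.49 and -0.87 on HK-2 replicates 1 and 2 and -1.36 on RPTEC/TERT1 replicate 1. On RPTEC/TERT1 replicate 2 its only spot was marked as an outlier by the scanner software and left out, and with that spot kept the level there was 2.85. HK-2 minus RPTEC/TERT1 was 2.18 ± 1.70 over 3 arrays (SE; limma, adjusted p = 1), and 0.07 ± 1.88 with the spot kept, over 4 arrays. The difference printed for 3 arrays therefore rests on the spot left out. The highest of the 3 arrays was 14.5 times the lowest, and 95.5% of the probes tested had a smaller range.

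**Figure D2:**
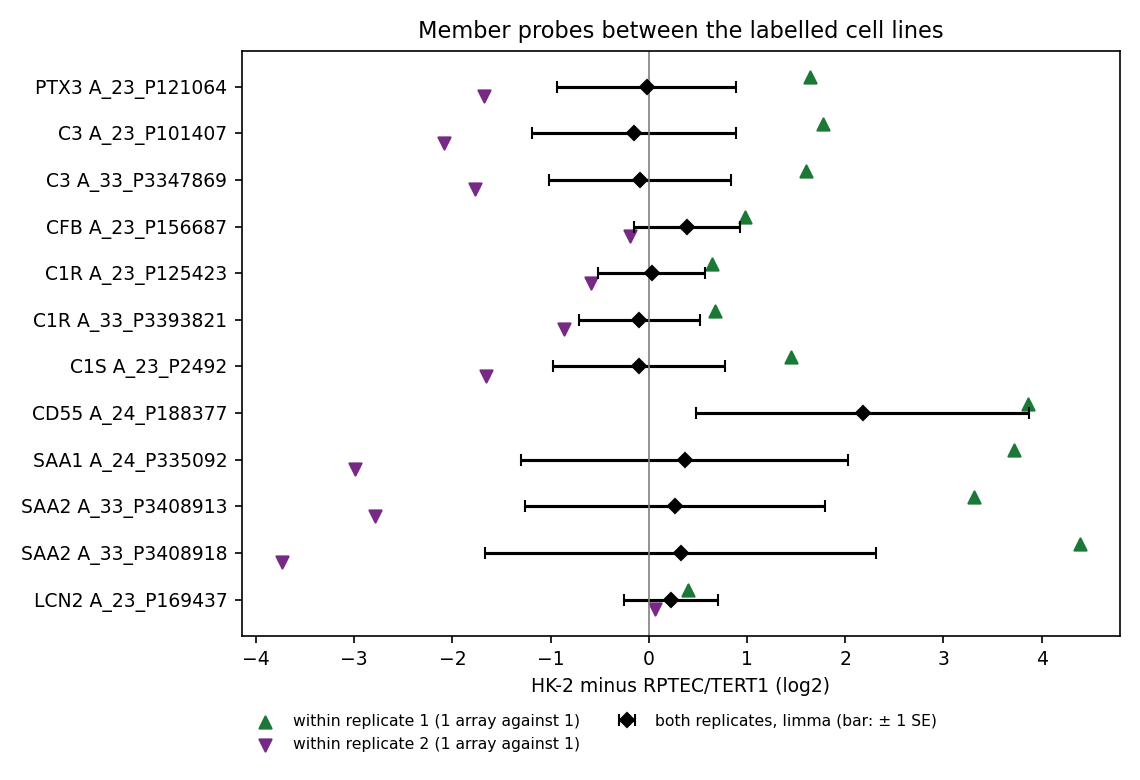
HK-2 minus RPTEC/TERT1 in log2 units for the 12 member probes tested, with black diamonds and bars for the limma estimate ± 1 SE over both replicates and triangles for the single arrays of replicate 1 (up) and replicate 2 (down). Triangles of the 2 replicates lie on opposite sides of 0 for every probe with both, except LCN2, for which both lie above 0.

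Within a replicate number, and so within a day of scanning, the sign of the difference depended on the number. In replicate 1 all 12 probes were higher on the HK-2 array, with a median difference of 1.62 beside 0.11 for all probes tested. In replicate 2, 1 of 11 probes was higher on the HK-2 array, that of LCN2, with a median of -1.68 beside -0.07 for all probes tested. Each of these compares 1 array with 1 array and has no test. Over both replicates the median difference of the members was 0.13, and that of all probes tested was 0.02. Of the 11 member probes with 4 values, 0 had labels whose arrays did not overlap, beside 6.86% of the 20806 probes with 4 values.

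Which arrays were high was nearly the same for all member probes with 4 values, among which C3, C1R and SAA2 have 2 each. For 10 of the 11 probes with 4 values the highest 2 arrays were RPTEC/TERT1 replicate 2 and HK-2 replicate 1, which held for 38.1% of all probes with 4 values, and the exception was LCN2. With the deposited log2 table in place of the processed signal the count was 7 of 11, beside 21.8%. In the reported fit these 2 arrays were the lowest 2 for another 33.5% of all probes with 4 values. A split into these pairs of arrays was therefore common among all probes. Member levels on RPTEC/TERT1 replicate 2 and HK-2 replicate 1 differed by a median of 0.20 in size, and those on RPTEC/TERT1 replicate 1 and HK-2 replicate 2 by 0.36. The median was 1.73 for the 2 HK-2 arrays and 1.57 for the 2 RPTEC/TERT1 arrays. Over all probes tested these 4 medians were 0.23, 0.32, 0.69 and 0.82. This is a description of 4 arrays, and no test was made between arrays put together by their values.

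The median range of the member probes over the 4 arrays was 1.90, beside 1.09 for all probes tested. Of the 12 member probes tested, 9 had a range over 1, beside 54.5% of all. SAA1, SAA2 and CD55 had the widest ranges and CFB, LCN2 and 1 C1R probe the narrowest. The members' median was 1.73 beside 1.75 for all probes after normexp background correction, and 1.64 beside 1.57 in the deposited log2 table.

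**Figure D3:**
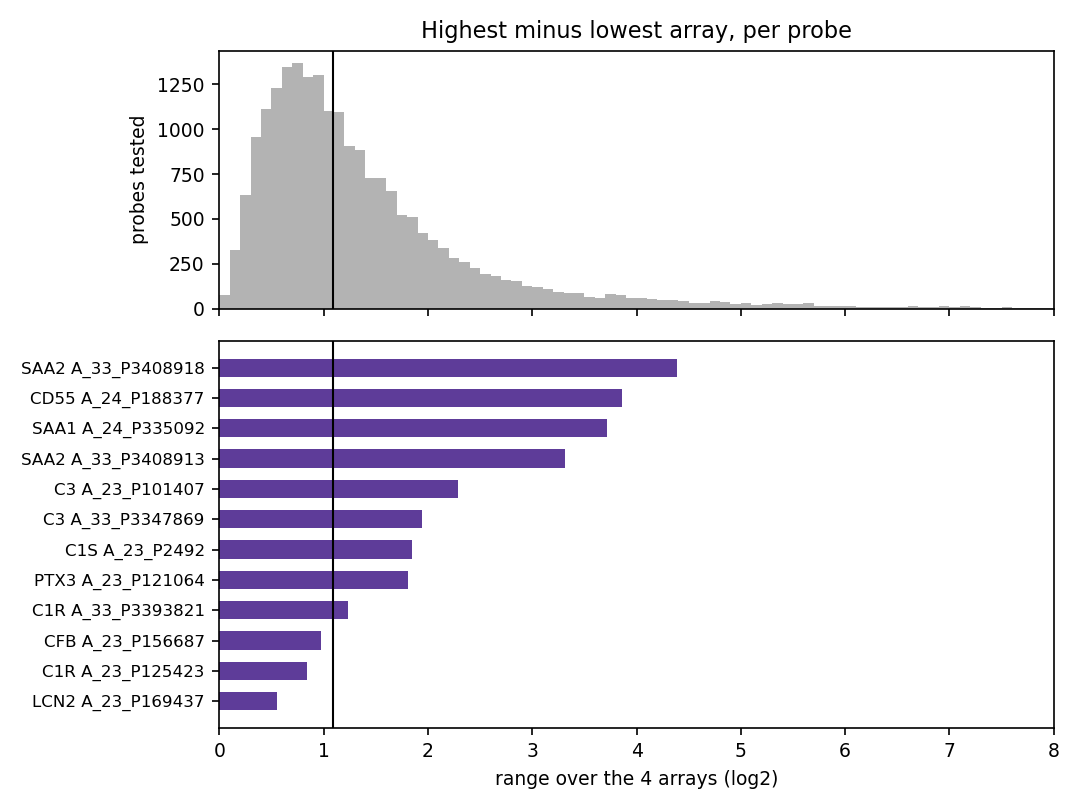
Highest minus lowest array in log2 units, as a histogram of all probes tested (top, axis drawn to 8) and for each of the 12 member probes tested (bottom); the vertical line is the median of all probes tested, 1.09. Ranges of SAA2, CD55 and SAA1 reach 3.31 to 4.39, and that of LCN2 is 0.55.

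Several marker lists were also high or low on the same arrays. The summed signal of the 6 epithelial markers was 116 and 101 times the 75th percentile on RPTEC/TERT1 replicate 2 and HK-2 replicate 1, in that order, and 45.5 and 46.9 times on RPTEC/TERT1 replicate 1 and HK-2 replicate 2. The 14 proximal tubule markers summed to 17.4 and 21.0 times on the first 2 arrays and to 8.51 and 4.93 times on the others, and 6 to 9 of them were well above background on an array. PAX8 made up most of that sum on every array, with levels of 3.73 and 4.13 on the first 2 and of 2.79 and 1.61 on the others, while LRP2 ran the other way, at -3.06 and -3.34 against -2.77 and -1.72. CDH1, the epithelial cadherin, was well above background only on RPTEC/TERT1 replicate 2 (-1.12) and HK-2 replicate 1 (-0.72). CDH6, another cadherin of the same list, ran the other way, at -3.49 and -3.26 on these arrays and at 0.86 and 0.27 on RPTEC/TERT1 replicate 1 and HK-2 replicate 2. Among 4 fibroblast markers the sum ran the other way, at 0.105 to 3.50 times, and rested on DCN, which was well above background on RPTEC/TERT1 replicate 1 (1.34) and HK-2 replicate 2 (1.77) only, while PDGFRB and COL3A1 lay at the floor on all 4 arrays. The 7 hepatocyte markers summed to 0.177 to 0.189 times on every array. The 6 leukocyte markers summed to 0.924 to 2.13 times, lower on RPTEC/TERT1 replicate 2 and HK-2 replicate 1. CD14 and CD68 among them were well above background on all 4 arrays. The 7 markers of other parts of the nephron summed to 0.390 to 1.46 times, higher where the leukocyte sum was lower. SLC12A1 of that list was well above background only on those 2 arrays (-0.098 and -0.51). The 4 endothelial markers summed to 0.197 to 0.397 times, without that split. The part of the cell types in the members' levels was not tested.

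The rest of the complement system was seen only in part. Of 22 other complement components on the array, 6 were well above background on all 4 arrays, 7 on some and 9 on none. The last included the C1q chains C1QA, C1QB and C1QC, the recognition unit of the C1 complex, which also holds C1r and C1s. Of the 11 tested, 0 passed the test between the labels, beside 0% of all probes, and their median range was 1.22. Factor D, encoded by CFD, which activates factor B, lay at -2.52 and -2.77 on RPTEC/TERT1 replicate 2 and HK-2 replicate 1 and at the floor on the other 2 arrays. C5, which starts the membrane attack complex, ran the other way, at -4.06 and -3.84 on those 2 arrays and at -1.42 and -1.62 on RPTEC/TERT1 replicate 1 and HK-2 replicate 2. C4B had a range of 1.76 and cannot be told from its near-copy C4A, and the recognition protein FCN1 also had a range of 1.76. FCN3, of the same family, and C8G had the smallest ranges, 0.18 and 0.58.

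Of 19 regulators and receptors of complement, 8 were well above background on all 4 arrays, 4 on some and 7 on none. Of the 12 tested, 0 passed the test, and their median range was 2.41. CFI, the protease that inactivates C3b, had levels of 0.99 and -4.66 on HK-2 replicates 1 and 2 and of -5.36 and 1.38 on RPTEC/TERT1 replicates 1 and 2, and it was not well above background on RPTEC/TERT1 replicate 1. CD59, which blocks the membrane attack complex on the cell surface, had levels of 2.44 and -1.55 on the HK-2 arrays and of -1.85 and 2.53 on the RPTEC/TERT1 arrays. C4BPA, a chain of the C4b-binding protein, ran from -5.07 to -1.15 with the same 2 arrays high. The clusterin gene CLU and SERPING1, which encodes the inhibitor of C1r and C1s, had the smallest ranges, 0.47 and 0.60. SERPING1 lay close to the floor, at -4.80 to -4.20.

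**Figure D4:**
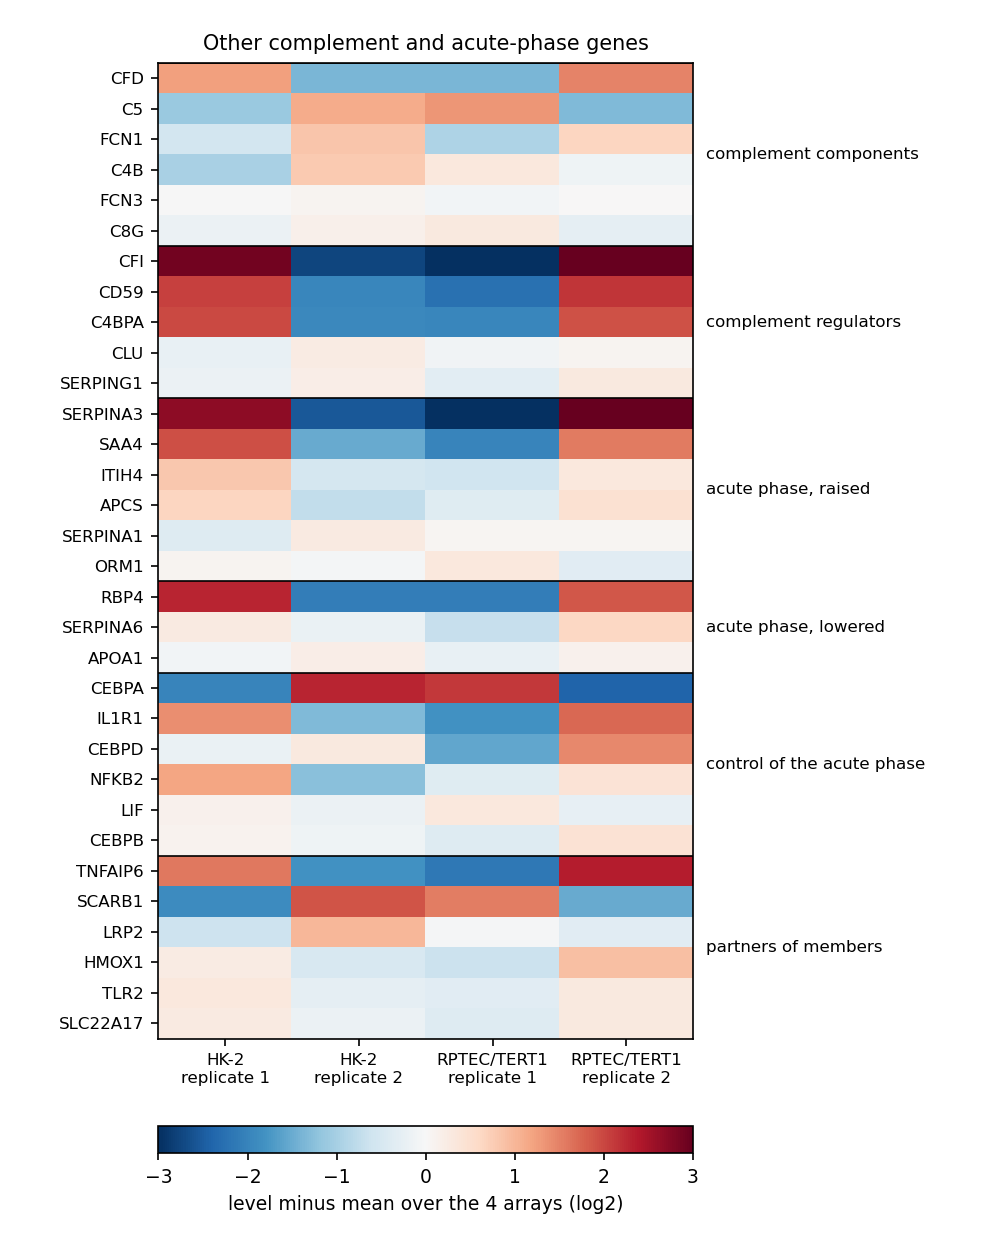
Levels of the named genes of 6 lists on the 4 arrays, in log2 units after the mean of the 4 arrays was taken from each gene; red is above and blue below that mean, and the scale ends at 3, which CFI and SERPINA3 pass. CFI, SERPINA3, CD59 and TNFAIP6 are above their means on RPTEC/TERT1 replicate 2 and HK-2 replicate 1, whereas CEBPA, SCARB1 and C5 are above theirs on RPTEC/TERT1 replicate 1 and HK-2 replicate 2.

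Of 20 other genes whose plasma proteins are raised in the acute phase, 7 were well above background on all 4 arrays, 6 on some and 7 on none, with the fibrinogen chains FGA, FGB and FGG among the last. Of the 10 tested, 0 passed the test. SERPINA3, which encodes α1-antichymotrypsin, had levels of 1.41 and -3.83 on HK-2 replicates 1 and 2 and of -4.45 and 1.73 on RPTEC/TERT1 replicates 1 and 2, so its highest array was 72.7 times its lowest. SAA4, the constitutive serum amyloid A, had levels of 2.09 and -1.35 on the HK-2 arrays and of -1.82 and 1.72 on the RPTEC/TERT1 arrays, in the order seen for SAA1. RefSeq lists a transcript that joins SAA2 and SAA4, so the probes of these genes may share RNA. ITIH4 and the pentraxin APCS had ranges of 1.40 and 1.37, with APCS close to the floor at -5.37 to -4.00. SERPINA1, which encodes α1-antitrypsin, was even, at 3.12 to 3.77, and ORM1, close to the floor, had a range of 0.67.

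Of 7 genes whose proteins are lowered in the acute phase, 1 was well above background on all 4 arrays, 2 on some and 4 on none, and 0 of the 3 tested passed. RBP4, the carrier of retinol, had levels of -1.03 on HK-2 replicate 1 and -1.44 on RPTEC/TERT1 replicate 2 and lay at the floor on the other 2 arrays. SERPINA6 and APOA1 had ranges of 1.31 and 0.43.

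The genes that control the acute phase were better covered, with 15 of 16 well above background on all 4 arrays and the other on some. Of the 16 tested, 0 passed, and their median range was 1.98. IL1R1, the receptor through which IL-1β signals, had levels of -0.78 and -3.50 on HK-2 replicates 1 and 2 and of -3.99 and -0.45 on RPTEC/TERT1 replicates 1 and 2. NFKB2, a subunit of NF-κB, had levels of 0.49 and -1.94 on the HK-2 arrays and of -1.07 and -0.28 on the RPTEC/TERT1 arrays. CEBPA was well above background only on RPTEC/TERT1 replicate 1 (-0.84) and HK-2 replicate 2 (-0.68). CEBPD, a C/EBP factor induced in the acute phase, had another order, with RPTEC/TERT1 replicate 2 highest at 4.96 and RPTEC/TERT1 replicate 1 lowest at 1.97. CEBPB and LIF had the smallest ranges, 0.81 and 0.56.

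Partners and receptors of the members were 10 genes, of which 7 were well above background on all 4 arrays and 3 on none. Of the 7 tested, 0 passed. TNFAIP6, which works with pentraxin 3 in the hyaluronan matrix, had levels of 0.02 and -3.37 on HK-2 replicates 1 and 2 and of -3.70 and 0.78 on RPTEC/TERT1 replicates 1 and 2, high on the same arrays as PTX3. SCARB1, a receptor for lipoproteins that also binds serum amyloid A, was high on the other 2, at 3.49 and 3.14 against -0.29 and 0.10. LRP2, the endocytic receptor megalin, which takes up lipocalin-2, had a range of 1.62. HMOX1 had a range of 1.55, and TLR2 and the lipocalin-2 receptor gene SLC22A17 had ranges of 0.66 and 0.69.

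Promoters were read for the 5 member genes that the RefSeq table of GRCh38.p14 holds, which are PTX3, CFB, LCN2, CD55 and C1R, the last with 2 starts. Each window ran from 250 bases before the start to 50 after it. The motifs searched on both strands were GGGNNNTCC, GGGNNTTTC and GGNNTTTCC for NF-κB, TTNNGCAA with its reverse complement TTGCNNAA for C/EBP, and TTCNNNGAA for STAT. GGGNNNTCC was found in 3 of the 6 member windows and in 21.0% of 35116 windows in all. The other NF-κB spellings were found in 0 of the 6, beside 4.78% and 6.26% of all. TTNNGCAA was found in 4 of the 6, beside 10.5% of all, and TTCNNNGAA in 2 of the 6, beside 7.66% of all. The 250 bases before the start are shown for 2 genes with a GGGNNNTCC match there, PTX3 and CFB. They are also shown for the member with the smallest range, LCN2, and the one with the largest range in this set, CD55. LCN2 and CD55 had no match to the 3 NF-κB spellings searched. Spellings of other lengths were not searched, so a window without a match may still hold another NF-κB site. Capitals mark the GGGNNNTCC matches, which overlap on the 2 strands in PTX3. They lie at chr3:157436600-157436849, chr6:31945845-31946094, chr9:128149203-128149452 and chr1:207321428-207321677 on the plus strand of GRCh38.p14.
PTX3: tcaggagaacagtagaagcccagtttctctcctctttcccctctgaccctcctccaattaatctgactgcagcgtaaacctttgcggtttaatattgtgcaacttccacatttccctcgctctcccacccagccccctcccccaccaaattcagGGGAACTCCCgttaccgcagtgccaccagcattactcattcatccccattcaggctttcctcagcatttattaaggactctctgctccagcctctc
CFB: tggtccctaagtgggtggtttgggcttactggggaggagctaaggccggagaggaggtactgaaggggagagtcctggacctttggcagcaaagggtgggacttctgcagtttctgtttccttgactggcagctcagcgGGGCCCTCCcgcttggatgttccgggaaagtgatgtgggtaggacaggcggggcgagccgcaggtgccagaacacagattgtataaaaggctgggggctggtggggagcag
LCN2: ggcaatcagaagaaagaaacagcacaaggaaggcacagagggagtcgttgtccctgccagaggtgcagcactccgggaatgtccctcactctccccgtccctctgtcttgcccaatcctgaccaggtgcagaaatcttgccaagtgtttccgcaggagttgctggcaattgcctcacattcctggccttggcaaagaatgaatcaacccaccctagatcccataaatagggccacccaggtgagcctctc
CD55: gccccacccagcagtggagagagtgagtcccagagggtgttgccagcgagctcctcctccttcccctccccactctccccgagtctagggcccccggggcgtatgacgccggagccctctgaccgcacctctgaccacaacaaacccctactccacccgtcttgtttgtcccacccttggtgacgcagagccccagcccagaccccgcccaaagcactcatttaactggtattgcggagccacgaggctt

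The GGGNNNTCC match began at base -96 from the start in PTX3 and at base -111 in CFB, and in 1 window of C1R it fell after the start. TTNNGCAA was found in PTX3, LCN2 and both windows of C1R, and TTCNNNGAA in CFB and 1 window of C1R. CD55 had a match to none of these motifs, and CFB had matches to 2 of them. Whether the motifs bear on the levels was not tested. These matches describe letters in a window and are not binding sites.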

How the data were processed

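Gene expression was measured with 4 Agilent 1-colour arrays, 1 per sample, and the labels and the methods gave the groups, doses, times and replicate numbers. The labels name the RNeasy kit for RNA and the methods the innuPREP kit. The authors deposited spot intensities from Agilent Feature Extraction 9.5.3.1, background-subtracted and not scaled between arrays, and a table of log2 values of the same spots, for which no processing step is given in the sources used here. The ranks of the deposited log2 values follow spot signal minus local background (Spearman 0.999 on every array), and their medians were 8.33, 7.14, 6.75 and 6.72 on HK-2 replicates 1 and 2 and RPTEC/TERT1 replicates 1 and 2. Their scaling and centring are unknown, their direction is that of the intensities, and they were used as an alternative.

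Control and outlier spots were left out, 1.24% to 1.85% of spots being outliers. Of the 22 member spots on each array, 1 on HK-2 replicate 1 and 3 on RPTEC/TERT1 replicate 2 were outliers. Each signal was scaled to the array's 75th percentile, raised to a floor of 0.0242 where it was below, taken to log2 and averaged over the spots of a probe. Probes that were well above background on 2 or more of the 4 arrays were compared between the labels with limma 3.58.1 (lmFit and eBayes, R 4.3.3) with Benjamini-Hochberg adjustment at 0.05. The code of this step was run on simulated data with small independent noise and no likeness across labels. That run does not show what the step could detect in these arrays. With 2 arrays a label the number of arrays limits the precision. The p-values set a difference against the spread between arrays of a label, which eBayes draws toward that of all probes tested. Between 59.2% and 64.9% of spots were well above background.

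All member probes are named. Of each other list, the genes with values are up to 4 with the largest range and up to 2 with the smallest among genes with a probe well above background on at least 2 arrays, the probe with the highest mean standing for the gene. Some results that this rule names are not reported here. The C1q, fibrinogen, marker and C2 genes were named outside this rule, after their values were seen. Members and lists were chosen with earlier results of these data known. Positions are those of the files (GRCh37). All 13 member transcripts were found in RefSeq under the same symbol, and promoters of 5 of the 9 genes were read from RefSeq (GRCh38.p14). Alternatives were normexp correction, quantile normalization, the deposited log2 table, other filters, outlier spots kept, gene means, a replicate block and each array left out.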

Additional observations from a re-analysis of the deposited data

How the results depend on the processing

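No member and no other probe passed the test between the labels under any alternative run. At an unadjusted p under 0.05 there were 26 probes in the reported fit and 8 after normexp correction or with probes above background on all arrays. There were 72 with the deposited log2 table and 309 without a filter. Members among them numbered 0 in each of these fits. Same-numbered arrays deviated from the means of their labels with r = -0.795 over 20806 probes, the same for both numbers by construction with 2 arrays a label. The numbers do not pair the arrays by any source beyond the scan day. With the replicate number as a block, 0 probes and 0 members were called, 15 probes had an unadjusted p under 0.05, and the members' median difference was 0.13. With the pairing crossed as a block, chosen after seeing the data, 0 probes and 0 members were called and 206 probes had an unadjusted p under 0.05. The median difference of all probes moved to 0.35 after normexp correction and to 0.70 in the deposited table, and that of the members to -0.27 and 0.58, which puts the members below all probes in both.

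Member differences that changed sign, none of them called, were those of LCN2 (-0.30), SAA1 (-0.11), SAA2 A_33_P3408913 (-0.23) and SAA2 A_33_P3408918 (-0.24) after normexp correction, of PTX3 (0.024) after quantile normalization, and of C3 A_23_P101407 (0.29), C3 A_33_P3347869 (0.33), PTX3 (0.35), C1S A_23_P2492 (0.34) and C1R A_33_P3393821 (0.27) in the deposited table. The cause was not tested. With 1 array left out, the lone array being taken to vary as the rest do, the difference ran from -1.30 to 0.99 for C3 A_23_P101407, from -1.06 to 0.89 for C3 A_33_P3347869, from -0.92 to 0.88 for PTX3, from -0.39 to 0.45 for C1R A_23_P125423, from -0.71 to 0.52 for C1R A_33_P3393821, from -0.032 to 0.82 for CFB, from -0.016 to 0.47 for LCN2, from -1.03 to 0.82 for C1S A_23_P2492, from -1.45 to 2.18 for SAA1, from -1.39 to 1.91 for SAA2 A_33_P3408913, from -1.75 to 2.40 for SAA2 A_33_P3408918 and from 0.50 to 3.86 for CD55, which could not be fitted without RPTEC/TERT1 replicate 1. Both values given for CD55 compare 1 array with 1 array and measure no spread of CD55. The members' median ran from -0.92 to 0.85. The range of CD55 was 2.28 after normexp correction, and the ranges of CFB and LCN2 were 1.47 and 0.87 in the deposited table. The C1S probe below background stood apart on HK-2 replicate 1 after normexp correction, with a range of 3.24. The order of arrays, whose alternatives were added after seeing the data, was 9 of 11 after normexp correction, beside 40.1% of all probes. With outlier spots kept it was 11 of 12, beside 38% of all probes.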
